A study of Rattus norvegicus with 9 samples.

Results

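The 9 genes described here are the secreted ligands of the bone morphogenetic protein (BMP) family and their antagonists on a quantitative PCR array of the rat patellar enthesis, the attachment of the patellar tendon to bone. They were taken by gene symbol and are 9 of the 84 target genes, with 7 ligands (*Bmp2*, *Bmp3*, *Bmp4*, *Bmp5*, *Bmp6*, *Bmp7* and *Gdf10*) and 2 antagonists (*Chrd* and *Nog*). Their levels were compared in 9 groups of male Sprague Dawley rats operated at the right patellar enthesis, with the uninjured enthesis of the other leg as native tissue. The S-MT and S-AT groups received a biphasic silk fibroin scaffold with a mixed or an abrupt transition between its phases. In the ED group the defect in the bone stayed empty and the tendon was reattached above it by suture, and in the TC group the tendon was cut across close to the enthesis and the bone was left intact. Each of these 4 groups was taken 12 and 4 weeks after surgery, and native tissue is labelled with 4 weeks. The design names 8 rats per group and time point and 72 samples, and tissue went into RNA extraction after mechanical testing. The deposited tables hold 1 value per gene and group, and whether this stands for 1 rat, an average over rats or a pool was not stated. There is therefore no error and no test for any difference, and every fold change below describes these 9 values per gene. Fewer cells of a type and less RNA per cell cannot be told apart in such tissue.

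BMP ligands bind paired type I and type II receptor kinases, which phosphorylate SMAD transcription factors that drive genes of cartilage and bone. Antagonists such as chordin and noggin bind the ligands outside the cell and keep them from their receptors. At the developing enthesis of the mouse, *Bmp4* from tendon progenitors is needed for the bony eminence to which the tendon attaches, and recombinant BMPs are used to induce bone.

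Promoter sequences are given for *Bmp5* and *Nog* because these were the ligand and the antagonist detected in most groups. They are the 250 bases before the annotated start in RefSeq (GRCr8), 5′ to 3′ on the strand of the gene. Capitals mark GGCGCC, a GC-rich motif bound by SMADs that act downstream of BMP receptors, and CAGAC or its reverse complement GTCTG, the SMAD box. GGCGCC reads the same on both strands.
*Bmp5*, chr8:85397379-85397628, plus strand: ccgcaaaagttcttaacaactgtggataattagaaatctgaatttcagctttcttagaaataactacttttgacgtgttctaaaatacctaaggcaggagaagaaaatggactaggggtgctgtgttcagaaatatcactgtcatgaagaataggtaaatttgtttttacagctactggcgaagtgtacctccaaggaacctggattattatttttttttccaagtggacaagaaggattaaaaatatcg
*Nog*, chr10:74627502-74627751, minus strand: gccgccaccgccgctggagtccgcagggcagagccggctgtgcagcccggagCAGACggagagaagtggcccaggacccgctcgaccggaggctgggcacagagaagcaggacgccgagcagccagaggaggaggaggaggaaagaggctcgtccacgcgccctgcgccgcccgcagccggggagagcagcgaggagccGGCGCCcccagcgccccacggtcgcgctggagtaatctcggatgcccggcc
The *Bmp5* window held neither motif, had a GC content of 35.2% and 4 CpG dinucleotides. The *Nog* window held 1 of each, with a GC content of 74.0% and 28 CpG dinucleotides. Of 33469 promoters of the same length, 8.69% held GGCGCC and 42.9% held CAGAC or GTCTG, and the medians were a GC content of 51.2% and 5 CpG dinucleotides. *Chrd* (78.4% GC, 30 CpG) and *Gdf10* (76.0%, 31 CpG) also held 1 GGCGCC each, *Bmp4* (66.4%, 17 CpG) held 2 SMAD boxes and *Gdf10* held 1. *Bmp3* (53.6%) and *Bmp6* (56.4%) held neither motif. *Bmp2* and *Bmp7* had no entry in the promoter table. A match is a description of the letters and not of a bound site.

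The array reports a threshold cycle (Ct), the PCR cycle at which a well passes a fluorescence threshold, so that an earlier Ct means more template and 1 cycle is a factor of 2. A gene was taken as detected at a Ct of 35 or below. Well H06 of the same plate, a genomic DNA control in the layout usual for this maker although the sources used here do not name it, gave the Ct of a signal that does not depend on a target transcript. Detection of the 84 target genes ranged over 20 to 83 genes in a group, with 20 in native tissue and 83 in ED at 12 weeks. The mean Ct of the reference genes *Ldha* and *Rplp1* lay between 25.73 and 30.02, and the distance between both genes ranged over 2.26 to 5.69 cycles. In the mean Ct of wells H10 to H12, positive PCR controls in the usual layout, S-AT (26.04) and ED (19.13) at 12 weeks stood apart from the other 7 groups (21.15 to 21.86). Of the tissue markers, the tendon matrix genes *Col1a1*, *Col1a2* and *Col3a1* and the cartilage collagen *Col2a1* were detected in every group. Of the other fibrocartilage markers *Comp* was detected in every group, but *Sox9* and *Col10a1* in 4 each, native tissue not among them. The blood and vessel markers *Cd36*, *Flt1*, *Vcam1* and *Itgam* were detected in 8, 7, 6 and 3 groups. The 5 bone markers (*Bglap*, *Sp7*, *Alpl*, *Phex* and *Sost*) were all detected in ED at 12 weeks, 3 in TC and 2 in S-MT at 12 weeks, and 0 in every other group, native tissue included.

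BMP ligands and antagonists gave late signals in nearly all groups. Only 18 of their 81 wells (22.2%) had a Ct of 35 or below, against 419 of 675 wells (62.1%) of the other 75 target genes. A further 44 wells had a Ct over 35 and 19 were undetermined. All 9 genes were detected in ED at 12 weeks, where 98.8% of all target genes were. In S-MT at 12 weeks 5 were detected (*Bmp3*, *Bmp4*, *Bmp5*, *Chrd* and *Nog*; 78.6% of all targets), in TC at 12 weeks *Bmp5* and *Nog* (60.7%), in S-AT at 4 weeks *Bmp5* (66.7%) and in ED at 4 weeks *Bmp5* (50.0%). No member was detected in S-MT at 4 weeks (60.7% of all targets), S-AT at 12 weeks (52.4%), TC at 4 weeks (28.6%) or native tissue (23.8%). Without ED at 12 weeks, 9 of 72 wells were detected, all with a Ct between 33.31 and 34.95.

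**Figure D1:**
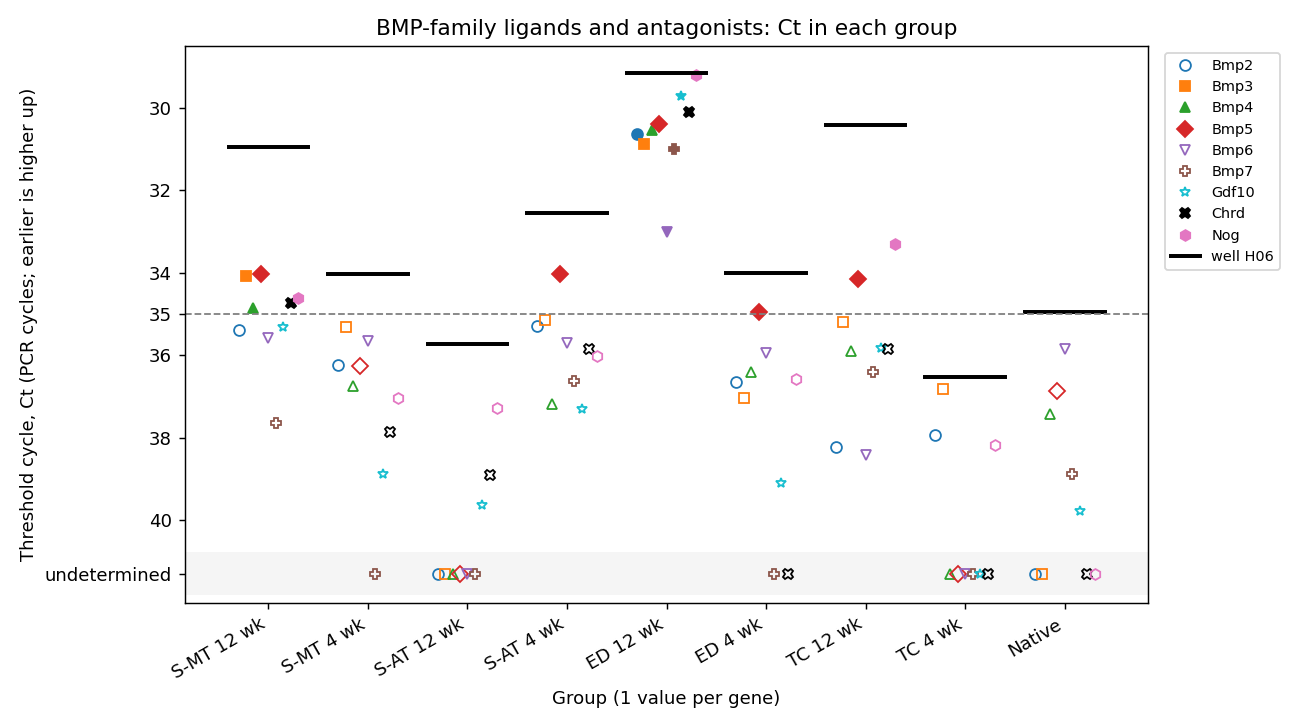
Threshold cycle of each BMP-family ligand and antagonist (vertical axis, PCR cycles, earlier at the top) in the 9 groups, 1 value per gene and group. Filled symbols have a Ct of 35 or below (dashed line), open symbols are later, the grey band holds undetermined wells and the black bars give well H06. In ED at 12 weeks the members lay between 29.21 and 33.02, and in no group was a member above the bar of H06.

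*Bmp5*, a ligand of skeletal patterning whose loss gives the short ear of the mouse, was the member detected most often, in 5 groups. Its Ct was 34.04 in S-MT, 30.39 in ED and 34.15 in TC at 12 weeks, and 34.02 in S-AT and 34.95 in ED at 4 weeks. It was 36.26 in S-MT at 4 weeks and 36.87 in native tissue, and undetermined in S-AT at 12 weeks and TC at 4 weeks. The other 4 detections all came more than 3 cycles after the one in ED at 12 weeks and within 1 cycle of the limit.

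*Bmp2*, a strong inducer of bone needed for fracture healing, was detected in 1 group. At 12 weeks its Ct was 35.38 in S-MT, 30.64 in ED and 38.23 in TC, and at 4 weeks 36.24 in S-MT, 35.30 in S-AT, 36.66 in ED and 37.93 in TC. It was undetermined for S-AT at 12 weeks and for native tissue. *Bmp2* thus passed the limit in ED at 12 weeks alone. *Bmp4*, the ligand known from enthesis development, was detected in S-MT (34.86) and ED (30.55) at 12 weeks. Elsewhere its Ct was 35.89 in TC at 12 weeks, 36.75 in S-MT, 37.18 in S-AT, 36.42 in ED at 4 weeks and 37.42 in native tissue, with S-AT at 12 weeks and TC at 4 weeks undetermined. Its well in S-MT at 12 weeks was inside the limit by less than 1 cycle.

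*Bmp6*, an osteogenic ligand that also controls hepcidin in the liver, had the latest Ct of the family in ED at 12 weeks, 33.02. In 5 groups its Ct lay close together, with 35.58 in S-MT at 12 weeks, 35.66 in S-MT, 35.70 in S-AT, 35.95 in ED at 4 weeks and 35.85 in native tissue. The mean Ct of *Ldha* and *Rplp1* in the same columns ranged over 26.39 to 30.02. *Bmp6* was at 38.43 in TC at 12 weeks and undetermined for S-AT at 12 weeks and TC at 4 weeks. *Bmp7*, an osteoinductive ligand needed for kidney and eye development, had a Ct of 37.64 in S-MT, 31.00 in ED and 36.41 in TC at 12 weeks, 36.63 in S-AT at 4 weeks, was at 38.87 in native tissue and stayed undetermined in the other 4 groups. *Bmp6* and *Bmp7* were detected in ED at 12 weeks alone.

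*Bmp3*, a divergent ligand that restrains osteogenic BMP signals, was detected in S-MT (34.09) and ED (30.89) at 12 weeks. It came just past the limit in TC at 12 weeks (35.20) and in S-MT (35.32) and S-AT (35.14) at 4 weeks. Later values were 37.03 in ED and 36.82 in TC at 4 weeks, and S-AT at 12 weeks and native tissue were undetermined. *Bmp3* therefore came near the limit in 3 groups that do not count as detected. *Gdf10*, its closest relative, had a Ct of 35.33 in S-MT, 39.64 in S-AT, 29.72 in ED and 35.82 in TC at 12 weeks. At 4 weeks it was at 38.88 in S-MT, at 37.30 in S-AT, at 39.09 in ED and undetermined in TC, and native tissue was at 39.78. *Gdf10* passed the limit in 1 group, although its well in ED at 12 weeks was the earliest of the 7 ligands there.

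The antagonists had the same earliest group. *Nog*, which encodes noggin, was detected in S-MT (34.61), ED (29.21) and TC (33.31) at 12 weeks. Its Ct was 37.28 in S-AT at 12 weeks, 37.04 in S-MT, 36.02 in S-AT, 36.58 in ED and 38.18 in TC at 4 weeks, and it was undetermined in native tissue. *Nog* was thus detected in 3 of the 4 operated groups at 12 weeks and in 0 of the 4 at 4 weeks. *Chrd*, which encodes chordin, had a Ct of 34.73 in S-MT, 38.90 in S-AT, 30.10 in ED and 35.86 in TC at 12 weeks, and at 4 weeks 37.85 in S-MT against 35.84 in S-AT. It was undetermined in ED and TC at 4 weeks and in native tissue, so that S-MT and ED at 12 weeks were its 2 detected groups. The order of genes within a column is one of wells, since primer efficiencies were not given, and says nothing of relative transcript levels.

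No well of a BMP ligand or antagonist came before H06 of its own column. This held for all 62 wells with a Ct. Of 675 wells of the other target genes, undetermined ones included, 258 (38.2%) came before H06, and 242 of the 419 detected ones (57.8%). In S-AT at 12 weeks (H06 at 35.74) and TC at 4 weeks (36.53) H06 lay past the limit. All 44 and 24 detected other genes there therefore came before it, as did all 20 in native tissue (34.95). No member was detected in these groups. At 12 weeks, 19 of the 74 detected other genes came before H06 in ED, 30 of 61 in S-MT and 2 of 49 in TC. The 9 members were among 30 of the 84 target genes that were before H06 in no group. Among the 18 detected wells the delay behind H06 ranged over 0.0445 to 3.91 cycles with a median of 1.78, and over all wells it reached 8.00 cycles (*Bmp6*, TC at 12 weeks). In ED at 12 weeks, where H06 had its earliest Ct (29.16), the delay was 0.0445 cycles for *Nog*, 0.554 for *Gdf10*, 0.941 for *Chrd*, 1.23 for *Bmp5*, 1.39 for *Bmp4*, 1.48 for *Bmp2*, 1.72 for *Bmp3*, 1.84 for *Bmp7* and 3.86 for *Bmp6*. In S-MT at 12 weeks (H06 at 30.95) the detected members came 3.09 (*Bmp5*) to 3.91 cycles (*Bmp4*) after it, and in TC at 12 weeks (30.42) 2.89 (*Nog*) and 3.73 cycles (*Bmp5*). *Bmp5* came 1.48 cycles after H06 in S-AT (H06 at 32.55) and 0.945 in ED (34.01) at 4 weeks. The 3 columns with the most members detected were those with the earliest H06, and the part of genomic DNA in the members' signals was not tested.

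**Figure D2:**
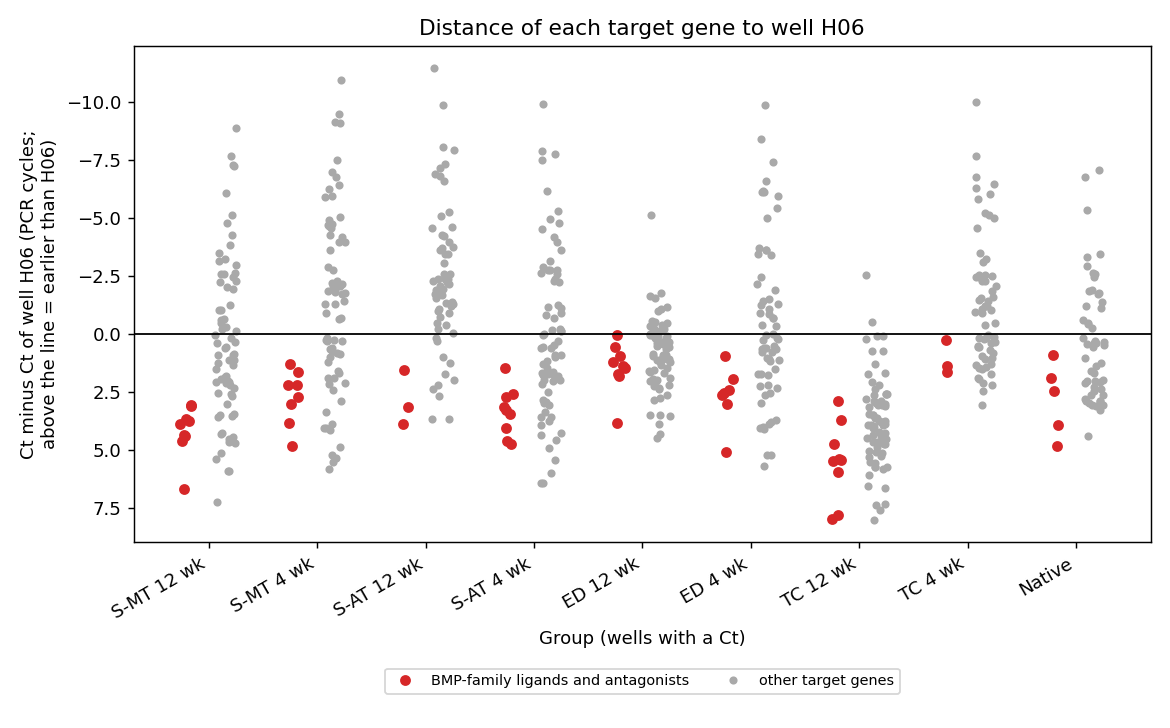
Ct minus the Ct of well H06 in the same column (vertical axis, PCR cycles, earlier than H06 above the line) for BMP-family ligands and antagonists (red) and the other target genes (grey) in the 9 groups, wells with a Ct only. All 62 red points lie below the line, while 258 grey points lie above it.

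Folds between groups were computed with *Ldha* and *Rplp1* averaged as reference, and with later or undetermined wells set to a Ct of 35. A fold is a bound where 1 group was over 35, has no value where both were, and was called at 2-fold. Over the 12 comparisons between treatments at the same week, 44 member folds had a value, 10 of them measured on both sides, with 5 called higher and 24 lower. Of the target genes with a value, 1.75% to 90.9% were higher and 0% to 88.0% lower, depending on the comparison. S-MT and S-AT against the single column of ED at 12 weeks gave 9 of the lower calls each. These comparisons share groups and are not independent of each other.

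The first question was whether the transition of the scaffold mattered. At 12 weeks, *Bmp3*, *Bmp5* and *Nog* were at least 2.97-, 3.06- and 2.07-fold higher in the S-MT group than in the S-AT group, and *Bmp4* and *Chrd* were at least 1.74- and 1.90-fold higher. That is 3 of the 5 members with a value, against 90.9% of the 66 target genes higher at 2-fold in the same comparison. All 5 are bounds, because no member was detected in S-AT at 12 weeks, the column with the late H10 to H12 wells. Members had a median log2 fold of 1.05 with bounds at their limits, against 2.60 over the target genes. H06 itself was 43.6-fold higher on this scale. At 4 weeks the one value was *Bmp5*, at least 2.09-fold lower in S-MT than in S-AT, where 5.26% of 57 target genes were lower.

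Next, the scaffold groups were set against the empty defect. At 12 weeks all 9 members were lower in S-MT than in ED, against 59.0% of the 83 target genes. Measured on both sides, *Nog* was 37.7-fold, *Chrd* 21.996-fold, *Bmp4* 17.7-fold, *Bmp5* 11.2-fold and *Bmp3* 8.20-fold lower. The other 4 were lower by at least 34.7-fold for *Gdf10*, 18.3-fold for *Bmp2*, 14.2-fold for *Bmp7* and 3.51-fold for *Bmp6*. The median log2 fold was -4.14 for the members and -1.60 for the target genes, and H06 itself was 3.07-fold lower on the same scale. In S-AT against ED at 12 weeks all 9 were lower as bounds, by at least 5.55-fold (*Bmp6*) to at least 77.9-fold (*Nog*), in a comparison where 88.0% of target genes were lower. At 4 weeks *Bmp5* was at least 2.68-fold lower in S-MT than in ED (17.0% of targets lower) and 1.28-fold lower in S-AT than in ED, which was not called (10.5%).

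**Figure D3:**
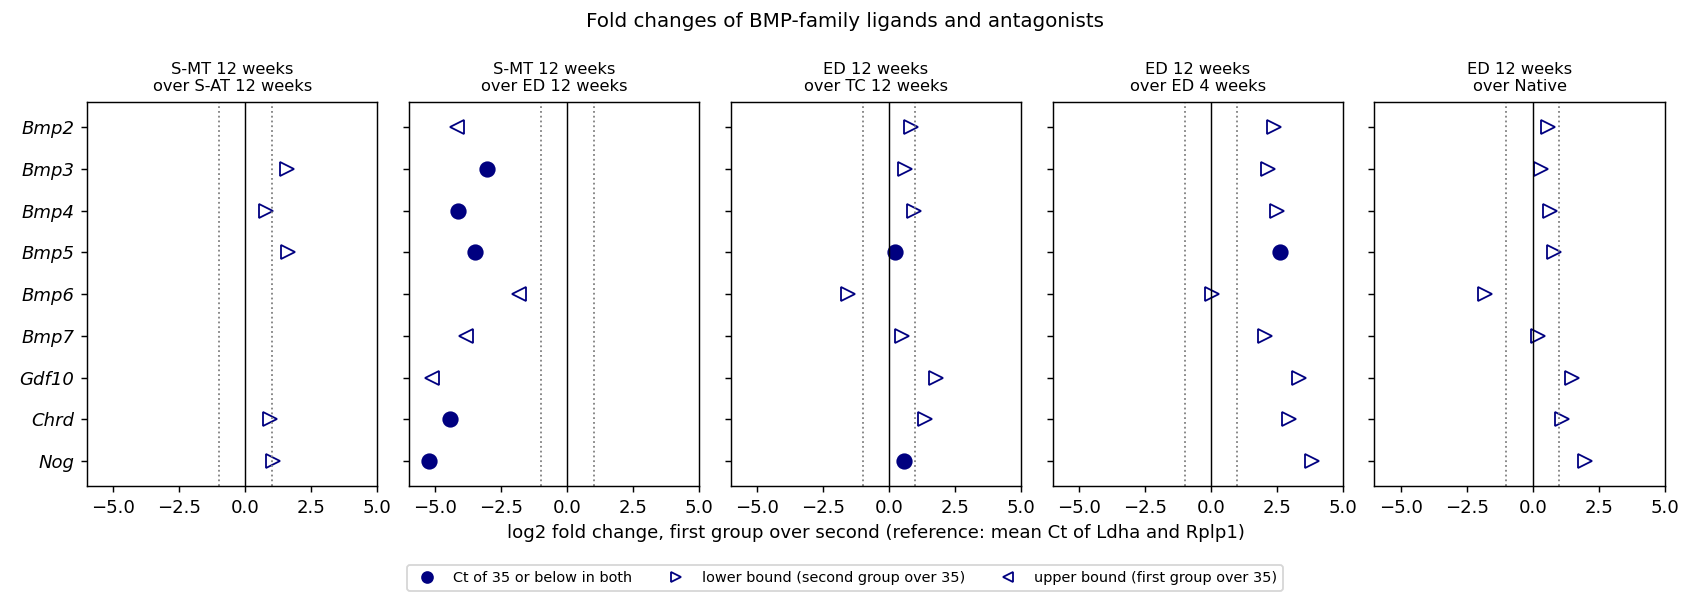
Log2 fold change of each BMP-family ligand and antagonist (horizontal axis, first group over second, relative to *Ldha* and *Rplp1*) in 5 comparisons. Filled circles were detected in both groups, arrowheads are bounds pointing to where the true value can lie, and dotted lines mark 2-fold. All 9 members lie to the left in S-MT over ED at 12 weeks, and 8 lie past the right dotted line in ED at 12 over 4 weeks.

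Against the tendon cut without bone damage, the comparison rested on *Bmp5* and *Nog*, the members detected in TC at 12 weeks. In S-MT they were 9.50-fold and 25.3-fold lower than in TC, both measured, where 35.7% of 70 target genes and, by 14.8-fold, H06 were lower. With H06 as reference *Bmp5* was 1.55-fold higher in S-MT and the call of *Nog* was lost. In S-AT they were at least 29.1-fold and 52.3-fold lower (76.7% of 60 targets), and H06 was 644-fold lower. In ED they were within 2-fold of TC, 1.18-fold higher for *Bmp5* and 1.49-fold higher for *Nog*. *Gdf10* and *Chrd* were at least 3.39-fold and 2.59-fold higher in ED than in TC, 2 of 9 members with a value, against 31.3% of 83 target genes. *Bmp4*, *Bmp2*, *Bmp3* and *Bmp7* were higher by at least 1.90-, 1.78-, 1.51- and 1.39-fold, and the bound of *Bmp6* (0.343) settles no direction. TC at 12 weeks had a late reference (29.75) but an early H06 (30.42), so that the reference led H06 by 0.673 cycles there and by at least 2.94 cycles in the other groups. At 4 weeks, *Bmp5* was the one member with a value over TC, and its bounds in ED (0.342) and S-AT (0.267) settle no direction.

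The later time point was set against the earlier one in each treatment. In ED 8 of 9 members were higher at 12 than at 4 weeks, against 67.5% of the 83 target genes. *Bmp5* was 6.08-fold higher, the one fold measured on both sides. The bounds were at least 14.3-fold for *Nog*, 10.04-fold for *Gdf10*, 7.68-fold for *Chrd*, 5.64-fold for *Bmp4*, 5.29-fold for *Bmp2*, 4.47-fold for *Bmp3* and 4.13-fold for *Bmp7*. *Bmp6* was at least 1.02-fold higher. With *Ldha* alone as reference 3 members passed 2-fold, and *Ldha* came 2.26 cycles after *Rplp1* in ED at 12 weeks against 5.69 cycles at 4 weeks. The members had a median log2 fold of 2.50 and the target genes 1.92, and H06 was 7.40-fold higher on this scale. In S-AT the decrease of *Bmp5* between both weeks was at least 4.39-fold, where 75.4% of 57 target genes were lower. In TC *Nog* was at least 3.18-fold and *Bmp5* at least 1.77-fold higher, with 23.1% of 52 target genes higher. In S-MT none of the 5 members with a value passed 2-fold (36.4% of 66 target genes did), and the bounds lay between 0.826 (*Bmp4*) and 1.46 (*Bmp5*).

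No member was detected in native tissue, so that all 18 values over native are lower bounds and none can show a decrease. Called higher were *Nog* (at least 3.98-fold), *Gdf10* (at least 2.80-fold) and *Chrd* (at least 2.14-fold) in ED at 12 weeks, 3 of 9 members against 41.0% of 83 target genes. In TC at 12 weeks *Nog* was at least 2.67-fold higher (29.4% of 51 target genes) and *Bmp5* at least 1.49-fold. For *Bmp5*, *Bmp4*, *Bmp2*, *Bmp3* and *Bmp7* in ED at 12 weeks the bounds were 1.75, 1.57, 1.47, 1.24 and 1.15, and 0.283 for *Bmp6*. The bounds of the scaffold groups were all under 1, with 0.0889 to 0.157 in S-MT at 12 weeks and 0.224 for *Bmp5* in S-AT at 4 weeks, because the reference genes were earlier there than in native tissue. *Bmp5* in ED at 4 weeks had a bound of 0.288. H06 was 3.95-fold higher in ED and 19.02-fold higher in TC at 12 weeks than in native tissue.

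Because no member well came before H06, folds were also computed with H06 as the reference, an alternative chosen after seeing the data. In S-MT against ED at 12 weeks 8 of 9 members were then still at least 2-fold lower, with measured folds of 12.3 for *Nog*, 7.16 for *Chrd*, 5.76 for *Bmp4*, 3.64 for *Bmp5* and 2.67 for *Bmp3*. *Bmp6* fell short of 2-fold, with a log2 bound of -0.19. In ED at 12 over 4 weeks 0 members were called, and *Bmp5* had a log2 fold of -0.28. In S-MT over TC at 12 weeks 0 were called lower, *Bmp5* turned to a log2 fold of 0.64, *Nog* had one of -0.78, and *Bmp3* was called higher as a bound (at least 2.71-fold). In ED over TC at 12 weeks 8 members were higher, *Nog* 7.16-fold and *Bmp5* 5.67-fold on both measured sides. The share of all target genes called with H06 as reference was not computed for any comparison. A change of reference moves every gene of a comparison alike, by 2.27 cycles upwards in ED over TC at 12 weeks. No member was called over native tissue, nor at 12 weeks between the scaffold groups or between S-AT and ED. The lower BMP ligands and antagonists in S-MT than in ED at 12 weeks were thus called with either reference for 8 of 9 members. Apart from *Bmp5*, the 8 values of ED at 12 over 4 weeks are lower bounds, the highest of them at least 1.93-fold for *Nog*, and do not show whether a difference was absent.

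**Figure D4:**
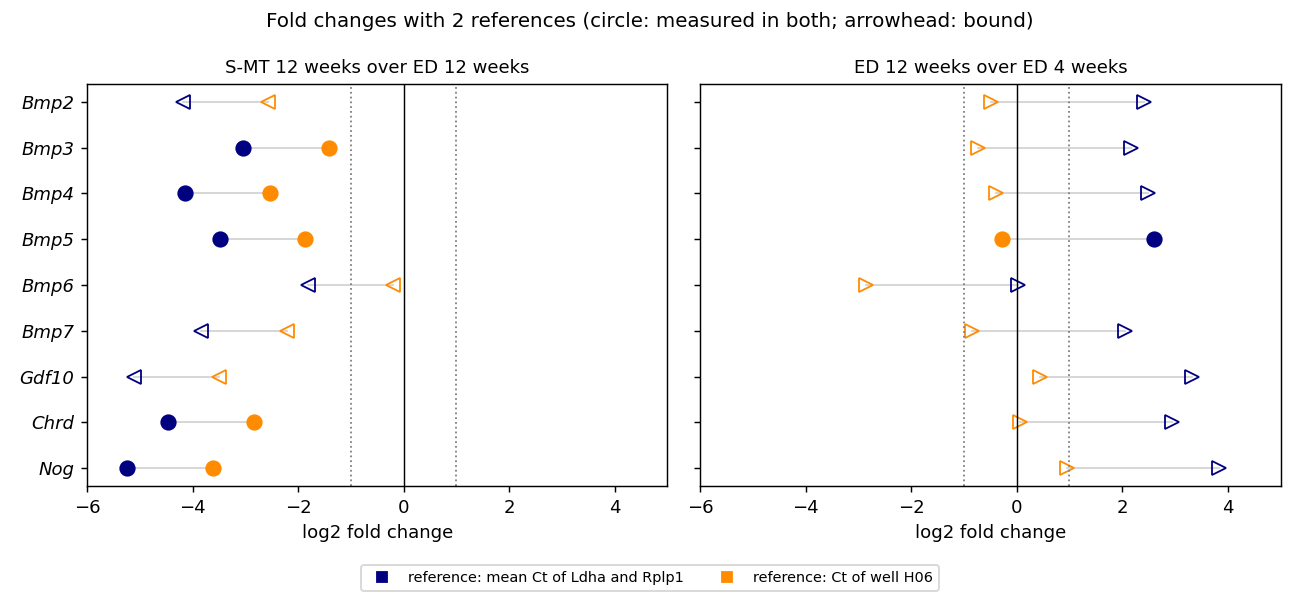
Log2 fold change of each BMP-family ligand and antagonist in S-MT over ED at 12 weeks (left) and in ED at 12 over 4 weeks (right), relative to *Ldha* and *Rplp1* (blue) or to well H06 (orange). Circles were detected in both groups, arrowheads are bounds and dotted lines mark 2-fold. On the left 8 orange symbols stay past 2-fold lower, and on the right 0 lie past 2-fold higher, where all but the circle of *Bmp5* are lower bounds.

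The BMP receptors were detected in 4 (*Acvr1*) to 8 groups (*Bmpr2*), and the ligands in 1 (such as *Bmp2*) to 5 (*Bmp5*). *Smad1*, *Sp7* and *Ihh* were detected in 1 group each. Over all groups, 62.1% of the wells of target genes outside the family were detected. All 4 BMP receptors (*Acvr1*, *Bmpr1a*, *Bmpr1b* and *Bmpr2*) were detected in S-MT at 12 (78.6% of all targets) and 4 weeks (60.7%). The same held for S-AT at 4 weeks (66.7%) and ED at 12 weeks (98.8%), and 0 were detected in native tissue (23.8%). In S-MT against ED at 12 weeks, where 59.0% of the 83 target genes with a value were lower, 3 of 4 receptors were lower, *Bmpr1a* 7.05-fold, *Acvr1* 6.00-fold and *Bmpr1b* 4.84-fold, while the type II receptor *Bmpr2* was 1.52-fold higher and not called. Of 5 SMADs (*Smad1* to *Smad5*), a list not limited to BMP signals, 4 were lower. Of 9 genes that respond to BMP signals or mark osteoblasts and chondrocytes 8 were lower, among them *Sox9* (24.3-fold), the cartilage regulator, *Alpl* (17.9-fold), the alkaline phosphatase of bone, and *Runx2* (2.74-fold), the osteoblast regulator. Of the 3 modulators outside the family, *Bmp1*, the protease that cleaves chordin, and *Twist1* were 3.04-fold and 4.83-fold lower. *Bgn*, a matrix proteoglycan that binds BMPs, was 4.86-fold higher. H06 itself was 3.07-fold lower on the same scale, more than *Bmp1* and *Runx2* were. All 3 TGF-beta ligands were lower, whereas the 3 tendon matrix collagens were all higher in S-MT. All 5 bone markers were lower in S-MT, 2 of them measured on both sides, and the part of bone in the sampled tissue was not tested.

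In ED at 12 over 4 weeks 67.5% of the 83 target genes with a value were higher. So were 3 of 4 receptors (*Bmpr1a* 12.7-fold, measured, *Acvr1* at least 10.04-fold and *Bmpr1b* at least 3.92-fold), and 4 of 5 SMADs and 7 of 9 responsive genes. *Col2a1* was 2.87-fold and *Bgn* 7.27-fold lower at 12 weeks, *Bmp1* was 3.47-fold and *Twist1* 4.41-fold higher, and the 3 tendon matrix collagens were all lower. H06 itself was 7.40-fold higher on this scale, more than *Bmp1* and *Twist1* and less than *Bmpr1a*. In S-MT over S-AT at 12 weeks, where 90.9% of target genes with a value were higher, all 4 receptors, 4 of 4 SMADs with a value and 2 of 3 TGF-beta ligands were higher, with *Bmpr2* (15.3-fold) and *Bmp1* (19.5-fold) measured in both. Unlike the ligands and antagonists, *Bmpr2* came before H06 in 6 groups and *Bmp1* in 8. *Bmpr1b*, *Smad1*, *Alpl*, *Bglap*, *Sp7*, *Col10a1* and *Ihh* did so in 0 groups, as the members did. In ED at 12 weeks *Bmpr2* came 1.59 cycles after H06.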

How the data were processed

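Relative mRNA levels of 84 target genes were measured in 9 groups with a 96-well rat osteogenesis array (RT2 Profiler, SYBR Green, CFX 96 thermocycler) and evaluated by the authors in the GeneGlobe portal. The first deposited table holds the authors' Ct of each well in PCR cycles (a score with no fixed range), with some wells undetermined. The second deposited table holds other values, which the authors normalized as 2 to the power of the negative Ct distance to both reference genes (*Ldha*, *Rplp1*). The third holds the authors' own fold changes and was not used. The version of the portal was not given in the sources used here, and no column of per-sample values was left out.

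Members were found by symbol, and all 84 symbols matched the RefSeq gene table. Wells that were undetermined or later than 35 were given a Ct of 35, the average of both reference genes was subtracted, and folds were called at 2-fold in 24 comparisons. Own normalized values lay within 5% of the deposited ones in 26 of 27 member wells. Groups were taken from the labels, and replicates could not be compared because each group has 1 value. All 9 members were named, and other genes of the pathway came from lists of receptors, SMADs, responsive genes, modulators, TGF-beta ligands and tissue markers. Members and lists were chosen with earlier results of these data known. Alternatives were a cut-off of 33 or none, only wells detected in both groups, other references, 3-fold for a call and the deposited normalized values. Well H06 as reference, a plate scale from wells H10 to H12, and leaving out ED or S-AT at 12 weeks were added after seeing the data. The calculation was tested on simulated data. Python 3.11.15, pandas 2.3.3, numpy 2.4.6 and matplotlib 3.10.9 were used. With 1 value per group no precision can be given.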

Additional observations from a re-analysis of the deposited data

Results flagged for a closer look

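*Bmp5* was the one member with a value in ED and in S-AT at 12 over 4 weeks, and it moved in opposite directions in the 2 treatments. Its log2 fold was 2.60 in ED, measured on both sides (30.39 cycles at 12 weeks, 34.95 at 4 weeks), and -2.14 in S-AT as a bound (undetermined at 12 weeks, 34.02 cycles at 4 weeks). Of the target genes, 67.5% of 83 were higher in ED and 75.4% of 57 were lower in S-AT. Their median log2 folds were 1.92 and -2.14. With 1 value per group the difference was not tested. Both columns at 12 weeks also stood apart in wells H10 to H12, with a mean Ct of 19.13 in ED and 26.04 in S-AT. With H06 as the reference the value in ED was -0.28, and the lower call in S-AT was lost. That bound could not be called lower, because H06 lay past the cut-off in S-AT at 12 weeks.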

How the results depend on the processing

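Of 171 counts recomputed under alternatives, 94 stayed within 1.5 times of the value in the text and 77 did not. Of 43 called member folds 2 changed direction, both with H06 as reference, *Bmp5* in S-MT over TC at 12 weeks (log2 0.64) and in ED at 12 over 4 weeks (-0.28). With H06 a bound could not count as changed in direction. These are therefore 2 of the 8 called folds that were measured on both sides. No member well came ahead of H06, so that keeping only members at least 1 cycle ahead of it left 0 folds. The alternatives of this count could only give 0 and are among the 94. So could the lower calls over native wherever a cut-off on the Ct was kept, because no member was detected there. Leaving out ED or S-AT at 12 weeks could not change the count of a comparison without that group. These are among the 94 too. With H06, the bounds over native, against S-AT at 12 weeks and in ED at 12 over 4 weeks could not reach a call. The causes of the changes below were not tested, other than that a stricter cut-off, fewer groups or no bounds leave fewer values.

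Members over native were called higher 4 times, and 0 times at a cut-off of 33, with both sides detected or with H06, 1 time at 3-fold or without ED at 12 weeks, 8 times without a cut-off or with the plate scale and 10 times with all 5 housekeeping genes. Without a cut-off 13 were called lower over native. Between treatments at the same week the 5 higher calls became 0 at a cut-off of 33, with both sides detected or from the deposited normalized values, 2 with the median of target genes, at 3-fold or without S-AT at 12 weeks, 3 with all 5 housekeeping genes or without ED at 12 weeks, and 9 without a cut-off or with H06. The 24 lower calls became 39 without a cut-off, 7 with both sides detected or from the deposited values, 8 with H06, 6 without ED and 13 without S-AT at 12 weeks. At 12 over 4 weeks the 9 higher calls became 2 at a cut-off of 33, 3 with *Ldha* alone, 1 with both sides detected, from the deposited values or without ED at 12 weeks, and 0 with H06. The 1 lower call became 3 without a cut-off and 0 at 33, with both sides detected, the median of target genes, the deposited values, H06 or without S-AT at 12 weeks.

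By comparison, ED at 12 weeks over native (3) gave 0 at a cut-off of 33, with both sides detected or with H06, 1 at 3-fold, 5 with *Rplp1* alone, 6 with the plate scale and 8 with all 5 housekeeping genes. S-MT over S-AT at 12 weeks (3) gave 0 at 33, with both sides detected, the median of target genes, the deposited values or H06, 1 at 3-fold and 5 with the plate scale. S-MT over ED at 12 weeks (9) gave 5 with both sides detected or from the deposited values. S-AT over ED at 12 weeks (9) gave 3 without a cut-off and 0 with both sides detected, the deposited values or H06. ED over TC at 12 weeks (2) gave 0 at 33, with both sides detected or from the deposited values, 1 with all 5 housekeeping genes or at 3-fold, 4 with *Rplp1* alone, 6 without a cut-off and 8 with H06. S-MT over TC at 12 weeks (2 lower) gave 0 lower at 33, 7 without a cut-off, and with H06 0 lower and 1 higher (*Bmp3*). ED at 12 over 4 weeks (8) gave 2 at 33, 3 with *Ldha* alone, 1 with both sides detected or from the deposited values and 0 with H06.

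The 18 detected member wells were 8 at a cut-off of 33, 62 with any Ct and 9 without ED at 12 weeks. With the plate scale the members detected were 8 in ED and 3 (*Gdf10*, *Chrd* and *Nog*) in S-AT at 12 weeks.

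No paired analysis was possible because each group has 1 value, and leaving out each rat in turn was not run because the tables analysed here hold no values per rat. Signal over background is one limit: every detected member well outside ED at 12 weeks was within 2 cycles of the cut-off, and most folds are bounds.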

Other observations

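No member was detected in the 6 groups that the measure of likeness asked for, so it was repeated with any Ct, a choice made after seeing the data. Over 6 columns *Gdf10* and *Chrd* were each other's nearest gene, with a mean difference of 0.518 cycles after centring. *Bmp4* was nearest to *Alpl* (0.236 cycles, 6 columns), *Nog* to *Itga3* (0.375, 6 columns) and *Bmp3* to *Bmpr1a* (0.389, 7 columns). *Bmp2* was nearest to *Smad1* (0.593, 6 columns), *Bmp6* to *Tgfb1* (0.633, 6 columns) and *Bmp5* to *Fgf2* (0.533, 7 columns), and *Bmp7* had too few columns. Most of these Ct are over 35 and all share the column's plate, and H06 ranked between 9th and 57th for the members.

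The deposited normalized value of *Gdf10* in native tissue was 0.00115. With the cut-off of 35 it was 0.0318 and without one 0.00116, so that the cut-off was applied to the other 8 native member wells and not to this one. *Gdf10* in ED at 12 weeks was 76.8-fold higher than native tissue from the deposited normalized values and at least 2.80-fold higher with the cut-off.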
